A study of Mus musculus with 6 samples.

Results

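Fatty acid binding proteins are small carriers that take up fatty acids, which dissolve poorly in water, and move them through the cytosol. The peroxisome proliferator-activated receptors (PPARs) are nuclear receptors that bind fatty acids and their derivatives, pair with a retinoid X receptor (RXR) on DNA and turn on genes of lipid storage and oxidation. Described here are 6 genes of the 27179 in the count table: Fabp3, the heart-type carrier, Fabp5, the epidermal-type carrier known for delivering ligands to PPARδ, Dbi, the acyl-CoA binding protein, which holds fatty acids once they are joined to coenzyme A, and the receptors Ppara, Ppard and Pparg. They were found by gene symbol. The group had been chosen by how its genes differed between treated and control libraries in these same data, so the differences of the 6 genes are given as a description, with no test. A filter on low counts left 12345 genes for testing, among them 4 of the 6: Fabp3, Fabp5, Dbi and Ppard.

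The cells were mouse embryonic stem cells (mESCs), pluripotent cells grown with serum and LIF, a cytokine that holds back differentiation. All libraries came from cells with Tfe3-ERT2, mouse Tfe3 fused to a tamoxifen-responsive domain, so that 4-hydroxytamoxifen (4OHT) brings this transcription factor of lysosomal and autophagy genes into the nucleus. The 4OHT group had 1 µg/mL of 4OHT for 48 h and the EtOH group had ethanol, its solvent, with 3 libraries in each. How long the EtOH group had ethanol is not given in the labels used here. The promoter of the fusion, the number of clones and whether the replicates were separate cultures are not given in the labels used here, so each p-value reflects the spread among these libraries, which may be technical. Cells without the fusion were not analysed here, and effects of 4OHT itself and of nuclear Tfe3 cannot be told apart. Total counts ran from 4092877 to 6427880 per library. Levels are given as CPM, counts scaled by the size of each library, and a count of 3 equalled between 0.469 and 0.738 CPM, a limit for counting error alone. The 10 listed mESC markers summed to between 5531 and 5646 CPM in EtOH and between 6491 and 6527 CPM in 4OHT. Of them 5 were higher (Nanog, Esrrb, Zfp42, Klf4 and Tfcp2l1), 3 lower (Pou5f1, Tdgf1 and Utf1) and Sox2 and Dppa5a not called. Over all tested genes 21.4% were higher and 20.6% lower. In CPM, Tfcp2l1 (669 to 1510) and Esrrb (566 to 882) rose most, while Tdgf1 (949 to 744) and Pou5f1 (791 to 697) fell most.

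The start regions of the members that were higher in 4OHT are shown because Tfe3 and the PPARs are each known for binding short DNA words. Tfe3 and its relatives bind the E-box CACGTG and its variant CATGTG, and nuclear receptors bind the word AGGTCA, which PPAR and RXR read as a direct repeat. Promoters are those of RefSeq on GRCm38, from 250 bases before to 50 after the start site, 5′ to 3′ on the strand of the gene; 5 of the 6 members matched. Capitals mark CATGTG in Fabp3 (chr4:130308488-130308787, plus strand) and AGGTCA in 2 of the 3 listed promoters of Pparg (chr6:115360894-115361193 and chr6:115362099-115362398, plus strand). Ppard (chr17:28232504-28232803, plus strand) held none of the words searched.
Fabp3: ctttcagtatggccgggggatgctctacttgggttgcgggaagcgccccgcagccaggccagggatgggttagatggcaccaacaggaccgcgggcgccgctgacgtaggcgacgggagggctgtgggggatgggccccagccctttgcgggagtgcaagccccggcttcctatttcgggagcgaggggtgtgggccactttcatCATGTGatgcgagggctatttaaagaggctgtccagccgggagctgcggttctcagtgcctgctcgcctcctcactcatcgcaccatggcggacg
Pparg, promoter at 115360894: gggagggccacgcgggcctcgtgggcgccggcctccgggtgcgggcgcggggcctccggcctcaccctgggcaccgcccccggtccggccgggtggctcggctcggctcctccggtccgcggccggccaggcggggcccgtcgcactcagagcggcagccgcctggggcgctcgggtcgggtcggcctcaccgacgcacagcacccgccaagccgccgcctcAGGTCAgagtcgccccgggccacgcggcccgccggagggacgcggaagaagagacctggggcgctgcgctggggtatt
Pparg, promoter at 115362099: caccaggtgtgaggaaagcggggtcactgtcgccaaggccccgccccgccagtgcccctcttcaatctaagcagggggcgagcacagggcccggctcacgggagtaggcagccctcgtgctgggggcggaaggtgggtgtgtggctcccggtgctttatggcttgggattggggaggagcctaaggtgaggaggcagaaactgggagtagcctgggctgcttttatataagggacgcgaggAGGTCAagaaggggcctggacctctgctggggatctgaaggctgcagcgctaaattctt
Ppard: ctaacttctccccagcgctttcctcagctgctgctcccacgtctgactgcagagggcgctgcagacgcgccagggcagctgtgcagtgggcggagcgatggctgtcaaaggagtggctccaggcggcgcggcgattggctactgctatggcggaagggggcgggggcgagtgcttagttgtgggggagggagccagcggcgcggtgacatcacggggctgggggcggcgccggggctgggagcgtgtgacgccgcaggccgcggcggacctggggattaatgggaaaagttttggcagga

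Searched on both strands were the E-box CACGTG with its longer form TCACGTGA, which contains it, and the receptor word AGGTCA with the direct repeat AGGTCANAGGTCA, which contains it as well. The word CATGTG and its longer form TCATGTGA were added after the promoters had been read. CACGTG was in none of the 8 promoters of the 5 matched members and in 7.15% of all 32851 promoters of this length. In Fabp3 the word TCATGTGA began 46 bases before the start site. It stood in 0.986% of all promoters and in 0.728% of the 12360 promoters of tested genes, and the shorter CATGTG in 14.2% and 8.04%. The word AGGTCA began 28 and 9 bases before the respective start sites of Pparg and was found in 16.3% of all promoters, while the direct repeat AGGTCANAGGTCA was in 0.0396% and in no member. TCACGTGA was in 0.974% of all promoters and in no member. These are matches of letters, and binding was not measured.

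Among the carriers, Fabp3 (Entrez Gene identifier 14077, on chromosome 4 of GRCm38 from 130308738 to 130315463) differed most. Its level was 32.8, 27.1 and 30.5 CPM in the EtOH libraries and 261, 249 and 239 CPM in the 4OHT libraries. All 3 treated libraries lay far above all 3 controls. The difference was 8.23-fold (log2 fold change 3.04, SE 0.06), from 30.2 ± 2.87 to 249.7 ± 10.9 CPM (SD, n = 3 each). Spread between the replicates, as a coefficient of variation, was 9.51% in EtOH and 4.35% in 4OHT, against the 8.59% and 2.70% that counting error alone would give at these depths. In bulk libraries like these, more or fewer cells of a type and more or less RNA per cell cannot be told apart.

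**Figure D1:**
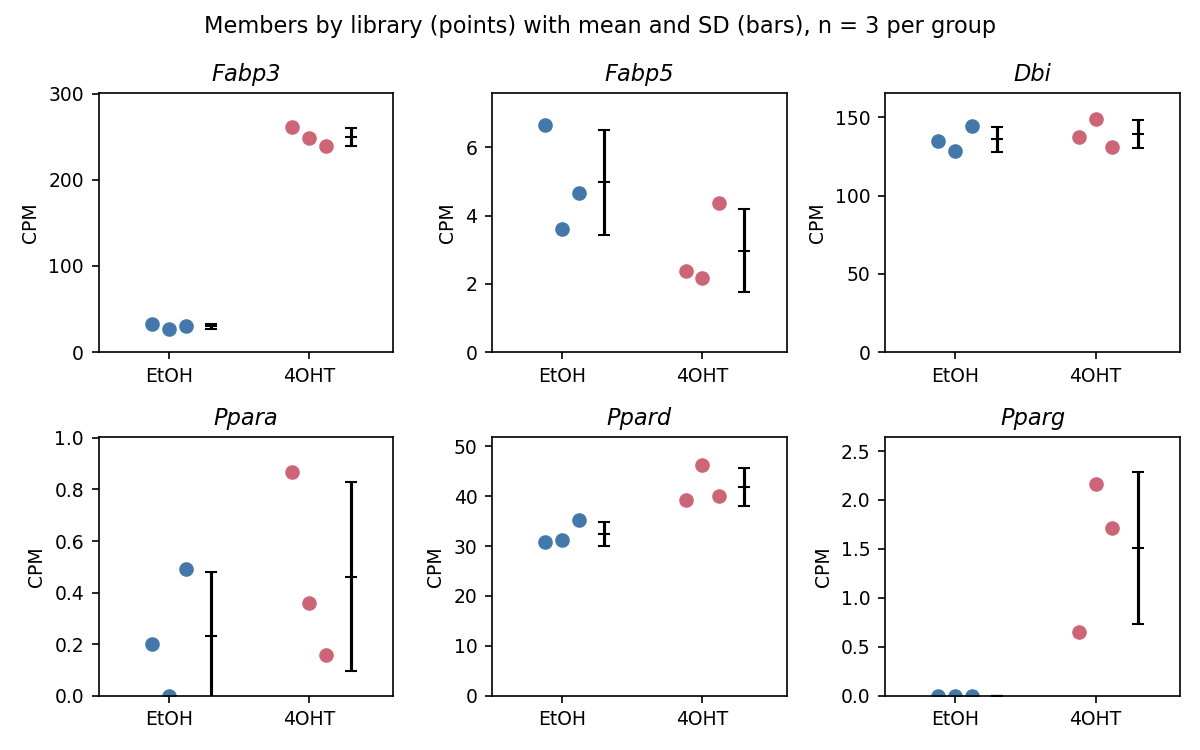
CPM (vertical axis, linear, from 0) of the 6 members in the 3 EtOH and 3 4OHT libraries, 1 point per library, with the mean and SD as bars. Fabp3 lies between 27.1 and 32.8 CPM in EtOH and between 239 and 261 CPM in 4OHT, and Pparg is at 0 in every EtOH library.

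Fabp3 shares 19.6% of its exon bases with 2 antisense gene models of GENCODE vM21, Gm10570 and Zcchc17, and the strand setting of the counting is not stated. Zcchc17, the antisense gene with a value, was at 25.4 ± 2.34 CPM in EtOH and 28.5 ± 0.343 CPM in 4OHT (edgeR adjusted p = 0.21). The part of antisense reads in the counts of Fabp3 was not tested. Of the 50-base words in the Fabp3 transcript 37.3% also stand in transcripts of other genes, most of them in the pseudogene Fabp3-ps1, which was not analysed here. How reads that match several genes were counted is not given, so the level of Fabp3 is uncertain to that extent.

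Fabp5 (chromosome 3, 10012585 to 10016610) was low and variable. It had 33, 16 and 19 counts in the EtOH libraries and 11, 12 and 28 in the 4OHT libraries, or 6.65, 3.62 and 4.67 CPM against 2.39, 2.16 and 4.37 CPM. The groups overlapped, because 4OHT replicate 3 lay above EtOH replicate 2. The fitted log2 fold change was −0.71 (SE 0.30), and it was −0.43 without EtOH replicate 1 and −1.14 without 4OHT replicate 3. The coefficient of variation was 30.9% in EtOH and 40.9% in 4OHT, against 21.0% and 24.3% from counting error alone. In the coding transcript of Fabp5, 21.1% of 50-base words also occur in related gene models such as Gm6166 and Fabp5l2.

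Dbi (chromosome 1, 120113280 to 120121096) was at 135, 129 and 145 CPM in EtOH and at 137, 149 and 131 CPM in 4OHT. The values of the groups were interleaved. The log2 fold change was 0.03 (SE 0.05), with the sign turning to −0.002 without EtOH replicate 2 and to −0.02 without 4OHT replicate 2. Few of its 50-base words are shared: 2.69% of those in the transcript Dbi-201 also stand in another gene model.

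Of the receptors, Ppard (chromosome 17, 28232754 to 28301469), which encodes the broadly expressed PPARδ, carried nearly all PPAR counts. It was at 30.8, 31.2 and 35.2 CPM in EtOH and at 39.3, 46.3 and 40.0 CPM in 4OHT. Every treated library lay above every control, by a small margin. The fold was 1.30 (log2 fold change 0.38, SE 0.10), from 32.4 ± 2.42 to 41.9 ± 3.89 CPM. Of the 4 tested members the groups of Fabp3 and Ppard did not overlap, 4OHT being higher in both; over all tested genes that held for 25.1% in this direction and for 48.8% in either, and the choice of members used this contrast.

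Pparg (chromosome 6, 115360879 to 115490404), the receptor known from fat cells and placenta, was at 0 counts in all controls and at 3, 12 and 11 counts in the 4OHT libraries. It was seen in all treated libraries and in no control. Summed over the group, 26 counts in 4OHT gave 1.57 CPM. A floor of 3 counts over the EtOH group corresponds to 0.223 CPM, and the 4OHT value was 7.04 times that floor. The ratio to the floor was 4.44 without EtOH replicate 1. It allows for counting error in EtOH but not in the 26 counts of 4OHT. At 0.651, 2.16 and 1.72 CPM the gene stayed under the minimum for testing, and 4OHT replicate 1 held no more counts than the floor. Ppara (chromosome 15, 85734910 to 85806851), the receptor of liver and oxidative tissues, had counts of 1, 0 and 2 in the control libraries and of 4, 2 and 1 in the treated ones. The ratio of its summed counts, scaled by library size, was 1.90, with an exact 95% interval from 0.433 to 11.4 for counting error.

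Levels of different genes can be set side by side only per length. On the scale of CPM per kilobase of the deposited gene length, Dbi stood at the top in EtOH (183 ± 10.9) and Fabp3 (47.1 ± 4.48) came next. Ppard followed at 10.1 ± 0.752 CPM per kilobase, then Fabp5 at 5.34 ± 1.65. The ranges of neighbouring genes in this order did not overlap in EtOH. In 4OHT the order of the upper pair was exchanged, with Fabp3 at 390 ± 17.0 and Dbi at 187 ± 12.1 CPM per kilobase, again without overlap. Below them were Ppard at 13.0 ± 1.21 and Fabp5 at 3.19 ± 1.31. Pparg at 0.762 ± 0.392 and Ppara at 0.0613 ± 0.0487 came last in 4OHT. In EtOH, Ppara was at 0.0307 ± 0.0329 and Pparg at 0, neither above the floor.

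Dbi was thus 3.89 ± 0.316 times as high as Fabp3 per length in EtOH, and Fabp3 was 2.09 ± 0.138 times as high as Dbi in 4OHT. Compared with the tested genes, the level of Fabp3 per length moved from the 84.3 percentile in EtOH to the 99.1 percentile in 4OHT. Dbi was at the 97.1 and 97.2 percentile. Of the summed level of Fabp3 and Fabp5 per length, Fabp3 made up 90.0% ± 1.96 in EtOH and 99.2% ± 0.364 in 4OHT. Ppard made up 99.7% ± 0.297 of the summed PPAR level in EtOH and 94.2% ± 2.04 in 4OHT, where the rest was mostly Pparg.

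**Figure D2:**
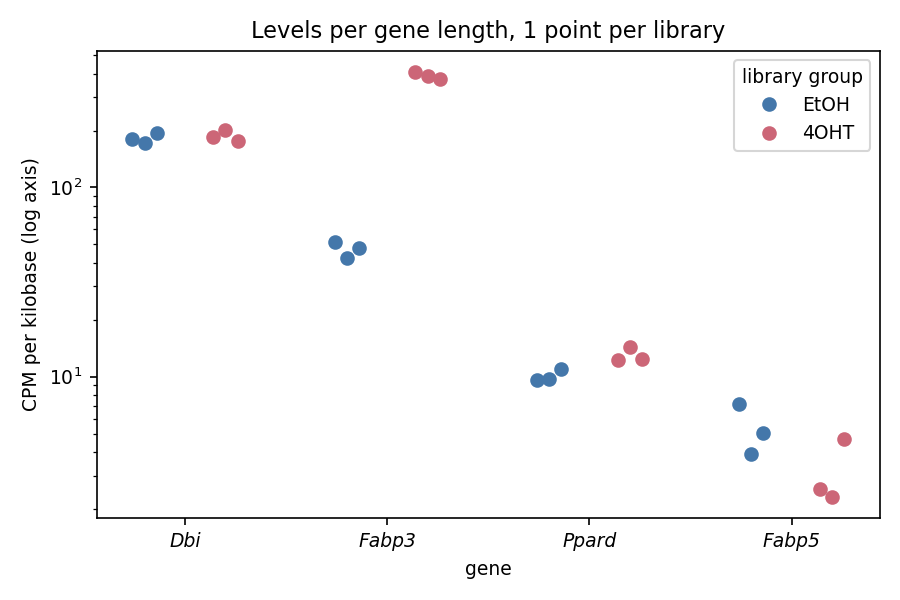
CPM per kilobase of gene length (vertical log axis) for Dbi, Fabp3, Ppard and Fabp5, 1 point per library, EtOH and 4OHT side by side. Fabp3 lies below Dbi in EtOH (47.1 against 183) and above it in 4OHT (390 against 187).

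The genes nearest to each member in profile were found by the distance between log2 CPM over the 6 libraries, each gene centred on its mean. They are descriptions of these libraries only. For Fabp3 they were the aquaglyceroporin gene Aqp3 (9.72 to 104 CPM), Lrrc15 (2.60 to 19.1 CPM) and the calcium-binding protein gene S100a1 (1.54 to 12.9 CPM), at distances of 0.50, 0.64 and 0.68. For Dbi they were Uqcr10, a subunit of respiratory complex III, Alg8 and Tecr, an enzyme of very long fatty acid elongation, with distances up to 0.067. For Ppard the sphingosine phosphate receptor gene S1pr2, Amigo1 and Rab24 were nearest, with distances up to 0.11. For the low genes they were Apoo, Gpr173 and Ltb for Fabp5 (up to 0.43), Fzd1, Krt10 and AI413582 for Ppara (up to 0.53), and Serpinb9b, Bhlhe41 and Gas7 for Pparg (up to 0.85).

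Genes beside Fabp3 on chromosome 4 differed by less than Fabp3 did, and in both directions. The neighbours were added after the values of Fabp3 were known. Of the 3 tested genes on each side, Tinagl1, a matrix protein gene 133.6 kb away, rose from 11.4 to 33.3 CPM (log2 fold change 1.56, adjusted p = 9.4e-24 in edgeR) and Pef1 from 25.7 to 33.5 CPM (0.37, edgeR adjusted p = 0.0025). Snrnp40, a component of the spliceosome, fell from 145 to 117 CPM (−0.31, edgeR adjusted p = 2.4e-07). Zcchc17, Nkain1 and Serinc2 did not pass the test, at log2 fold changes of 0.18, 0.04 and 0.61. Serinc2 was called without EtOH replicate 3 (edgeR adjusted p = 0.049) or 4OHT replicate 2 (0.042). Over the neighbours of all 6 members, 13 of 36 genes were higher and 8 lower, against 21.4% and 20.6% of all tested genes. With DESeq2, Insig2 (adjusted p = 0.19) and Atg7 (0.053) were no longer called higher, nor Tmem177 (0.12) lower.

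**Figure D3:**
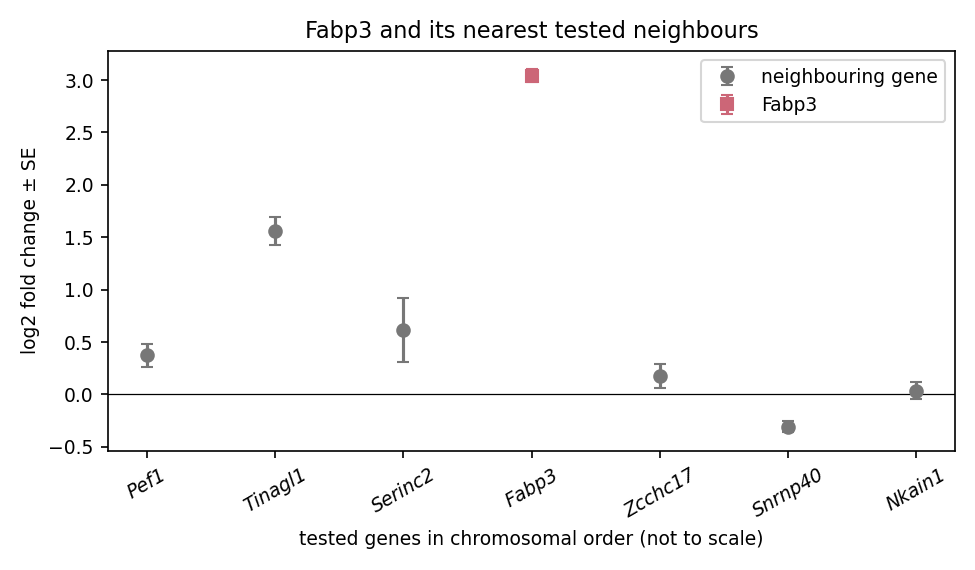
Log2 fold change of 4OHT over EtOH with its SE (vertical axis) for Fabp3 and the 3 nearest tested genes on each side, in chromosomal order and not to scale. Fabp3 is at 3.04 and its neighbours lie between −0.31 and 1.56.

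The other genes of the pathway were counted in the fit over all tested genes, where 21.4% were higher and 20.6% lower in 4OHT (edgeR quasi-likelihood test, Benjamini-Hochberg adjusted p under 0.05). Over 9 lists with 158 distinct genes, 111 were tested, 39 were higher and 16 lower, a median log2 fold change of 0.11 against 0.00 over all tested genes. Some genes stand on more than 1 list. No other member of the fatty acid binding protein branch passed the filter: Fabp1, Fabp2, Fabp4, Fabp6, Fabp7, Fabp9 and Fabp12 had 0 counts in every library, which allows up to 3 counts in each. The related carriers of retinoic acid fell. Crabp1 went from 8.29 ± 3.09 to 4.10 ± 1.36 CPM (log2 fold change −1.02, adjusted p = 0.00025 in edgeR) and Crabp2, which delivers retinoic acid to its receptor, from 5.73 ± 0.522 to 1.94 ± 0.513 CPM (−1.55, edgeR adjusted p = 1.1e-05).

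Among 10 tested genes of acyl-CoA binding, relatives and partners of Dbi, 3 were higher and 1 lower (median log2 fold change −0.01). Acbd5, a tether between peroxisome and endoplasmic reticulum, rose from 32.0 ± 2.06 to 43.2 ± 1.44 CPM (1.35-fold, adjusted p = 5.6e-05 in edgeR), the Golgi protein gene Acbd3 rose 1.27-fold and Hsd17b4, an enzyme of peroxisomal oxidation, 1.22-fold. Pecr, a peroxisomal enoyl-CoA reductase, fell from 38.3 ± 0.681 to 28.3 ± 2.59 CPM (edgeR adjusted p = 0.00015). Not called were Scp2 (log2 fold change −0.01), Tspo, the outer membrane protein that binds the Dbi protein (−0.07), Eci2 (−0.02), Acbd4 (0.14), Acbd6 (−0.17) and Acbd7 (−0.80). Without 4OHT replicate 3, Acbd6 (edgeR adjusted p = 0.045) and Acbd7 (0.020) were called, and Acbd7 also without EtOH replicate 2 (0.023).

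Of 12 tested genes that take up or activate fatty acids, 1 was higher and 3 lower (median log2 fold change 0.08), and 3 were higher without EtOH replicate 2. Slc27a2, which encodes a very long chain acyl-CoA synthetase and transporter, fell from 58.3 ± 3.71 to 28.5 ± 3.89 CPM (2.07-fold lower, adjusted p = 7.9e-23 in edgeR). The acyl-CoA synthetase genes Acsl5 and Acsl4 were 1.36-fold and 1.18-fold lower. The Acsl4 call was lost without EtOH replicate 1 (edgeR adjusted p = 0.056), without 4OHT replicate 2 (0.17) and with DESeq2 (0.071). Cavin1, a coat protein gene of caveolae, rose 1.51-fold from 91.7 CPM.

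Lipases and thioesterases release fatty acids from lipids and from coenzyme A. Of 20 tested, 5 were higher and 4 lower (median log2 fold change 0.12). Mgll, the monoacylglycerol lipase, went from 1.77 ± 0.281 to 4.09 ± 0.463 CPM (2.28-fold, adjusted p = 0.0034 in edgeR) and Pnpla3 rose 1.75-fold. The lipoprotein lipase gene Lpl (1.56-fold), Naaa (1.48-fold) and the lipase activator gene Abhd5 (1.37-fold) also passed the test. DESeq2 called none of these 3 (adjusted p = 0.087, 0.14 and 0.077). Lpl was also lost without EtOH replicate 1 (edgeR adjusted p = 0.086) or 4OHT replicate 2 (0.078) and Abhd5 without EtOH replicate 2 (0.087). Naaa was lost without each EtOH library in turn (up to 0.14) and without 4OHT replicate 1 (0.23). The thioesterase gene Acot1 fell from 14.1 ± 2.53 to 7.04 ± 1.49 CPM (edgeR adjusted p = 4.7e-07), and Pla2g6, Acot7 and Pnpla8 were 1.48-fold, 1.24-fold and 1.22-fold lower.

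Of 9 tested nuclear receptors related to or paired with the PPARs, 1 was higher and 1 lower (median log2 fold change 0.05). The lower count was 2 or 3 in each fit that left out 1 library (3 without EtOH replicate 2 and without 4OHT replicate 1), and the higher count was 2 without 4OHT replicate 2. Esrrb, a receptor of the mESC state, rose 1.56-fold (566 ± 14.5 to 882 ± 7.42 CPM, edgeR adjusted p = 2.2e-48), and the retinoic acid receptor gene Rara fell from 76.7 ± 4.94 to 47.9 ± 2.37 CPM (edgeR adjusted p = 7.3e-15). The RXR genes, partners of the PPARs, were named after their values were seen. Rxra had means of 19.9 ± 0.478 CPM in EtOH and 20.5 ± 0.767 CPM with 4OHT. Rxrb was at 60.2 ± 1.13 and 53.2 ± 3.02 CPM (edgeR adjusted p = 0.052), and it passed the threshold with DESeq2 size factors (0.047) and without 4OHT replicate 1 (0.036). Rxrg, too low to be tested, had 10, 11 and 12 counts in the EtOH libraries and 0, 3 and 4 in the 4OHT libraries, groups that did not overlap.

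Receptors recruit coactivators to turn on genes. Of 17 tested coactivator genes, 9 were higher and 1 lower (median log2 fold change 0.20), and 2 were lower without EtOH replicate 2 and without 4OHT replicate 2. Ncoa3 rose from 278 ± 9.98 to 422 ± 9.21 CPM (1.52-fold, adjusted p = 2.4e-35 in edgeR), Cited2 from 68.2 ± 4.29 to 118 ± 4.30 CPM (1.74-fold), and Ncoa6 and Ncoa1 rose 1.59-fold and 1.47-fold. The methyltransferase gene Carm1 was 1.26-fold lower (edgeR adjusted p = 6.6e-10). Named after their values were seen, Prdm16, known from brown fat, rose from 5.29 ± 1.29 to 10.9 ± 1.22 CPM (edgeR adjusted p = 1.4e-05). Also named in this way, Ppargc1b, a PGC-1 coactivator gene, was called 1.39-fold higher in edgeR (adjusted p = 0.046) but not with DESeq2 (adjusted p = 0.18), without the filter (edgeR adjusted p = 0.062), or without any one of EtOH replicates 1 and 3 and the 3 4OHT libraries (up to 0.23). The gene of the related coactivator PGC-1α, Ppargc1a, had 0 counts in every library. Med1, the Mediator subunit that contacts PPARs, was at 97.7 ± 1.90 and 99.5 ± 4.75 CPM (edgeR adjusted p = 0.76).

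Of 10 tested corepressor genes, 5 were higher and 2 lower (median log2 fold change 0.11), or 2 and 1 with DESeq2. Sirt1, a deacetylase gene, rose from 155 ± 3.85 to 213 ± 22.4 CPM (1.37-fold, adjusted p = 1.1e-14 in edgeR), and Ncor1 rose 1.14-fold. Sin3a was 1.16-fold lower. Nrip1 (edgeR adjusted p = 0.026) and Fam120b (0.034) were higher and Tbl1xr1 (0.0067) lower in edgeR but not in DESeq2 (adjusted p = 0.13, 0.15 and 0.054). Leaving out single libraries also ended these calls: each EtOH library and 4OHT replicate 3 for Nrip1 (edgeR adjusted p up to 0.16), EtOH replicates 2 and 3 and 4OHT replicates 2 and 3 for Fam120b (up to 0.12), and 4OHT replicate 2 for Tbl1xr1 (0.094).

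Genes known elsewhere as PPAR targets were counted in 2 lists, which share members with the lists above. Of 38 tested, each counted once, 17 were higher (44.7%, against 21.4% of all tested genes) and 3 lower (7.89%, against 20.6%), with a median log2 fold change of 0.20. Without EtOH replicate 1 the lower count was 1. A list described in this way is not shown to differ from other genes, and many of its members answer to other factors too. Among 14 tested genes of lipid droplets, uptake and secretion, 7 were higher and 1 lower. Plin2, which coats lipid droplets, rose from 33.2 ± 1.13 to 73.7 ± 1.06 CPM (2.22-fold, adjusted p = 2.8e-30 in edgeR). The desaturase gene Scd1 rose from 101 ± 0.415 to 184 ± 2.92 CPM (1.83-fold, adjusted p = 3.1e-40 in edgeR) and the cholesterol exporter gene Abca1 1.77-fold. Angptl4, a secreted inhibitor of lipoprotein lipase and a much used readout of PPAR activity, fell from 17.0 ± 1.84 to 12.3 ± 0.673 CPM (1.40-fold lower, adjusted p = 0.0064 in edgeR). That call was lost with DESeq2 (adjusted p = 0.054) and without EtOH replicate 1 (edgeR adjusted p = 0.075).

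**Figure D4:**
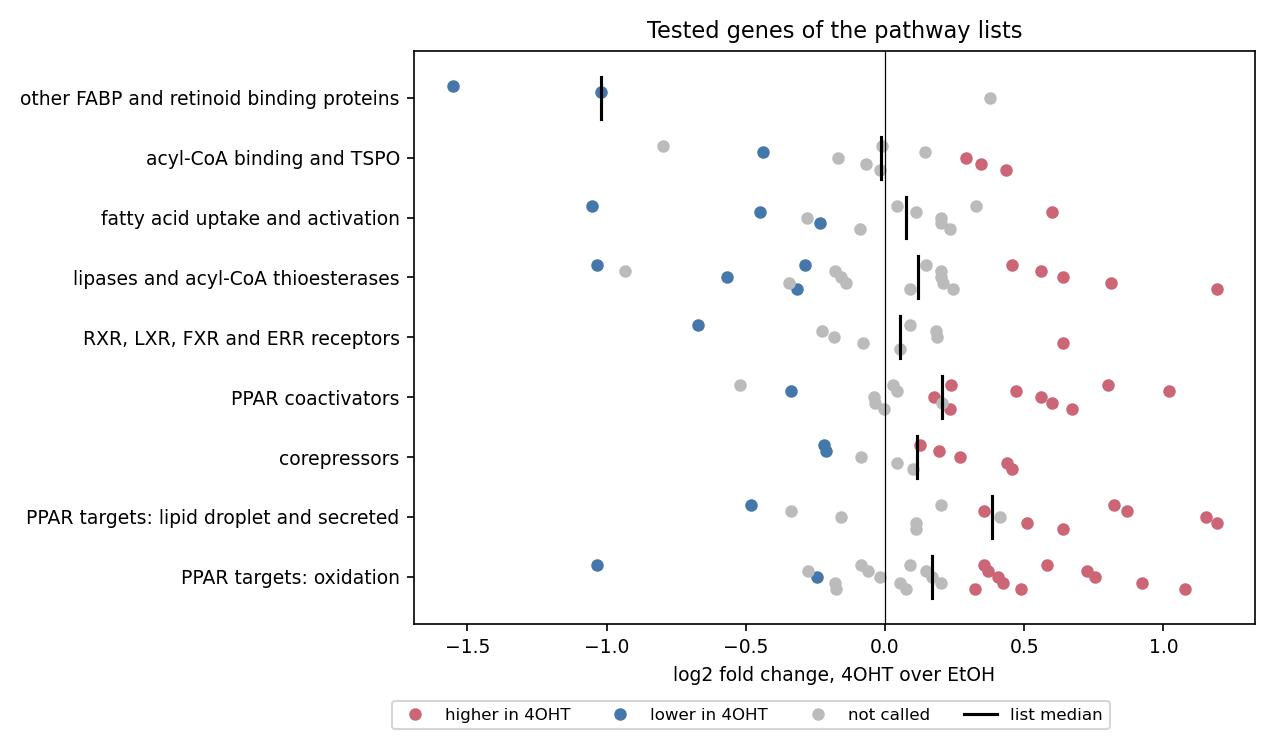
Log2 fold change of 4OHT over EtOH (horizontal axis) for each tested gene of the 9 pathway lists, 1 point per gene, coloured by call, with the list median as a black bar. The list medians run from −1.02, over 3 tested carriers that include Crabp2 at −1.55, to 0.39 for the PPAR targets of lipid droplets and secretion.

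In the list of target genes for mitochondrial and peroxisomal oxidation 25 were tested, of which 11 were higher and 2 lower (median log2 fold change 0.17). Higher were genes of both organelles: Cat, the peroxisomal catalase (125 ± 11.1 to 177 ± 2.26 CPM, 1.40-fold, adjusted p = 3.7e-17 in edgeR), the carnitine carrier gene Slc25a20 (1.90-fold) and Cpt1a, which commits fatty acids to mitochondria (63.3 ± 6.39 to 81.2 ± 1.31 CPM, 1.28-fold, adjusted p = 7.4e-06 in edgeR). Named after their values were seen, Ehhadh went from 2.82 ± 0.888 to 6.07 ± 0.938 CPM (edgeR adjusted p = 0.0010) and the kinase gene Pdk4 from 9.49 ± 1.82 to 14.0 ± 1.64 CPM (edgeR adjusted p = 0.0030). Acadm and Hadha, enzymes of the mitochondrial spiral of oxidation, had log2 fold changes of 0.08 and −0.06 and were not called. Nor were Cpt2, Acadvl, Hadhb, Hadh and Decr1. Acadl (1.33-fold, edgeR adjusted p = 4.7e-05), Etfdh (1.29-fold, 0.0013) and Acaa2 (1.34-fold, 0.019), also mitochondrial, were called higher. The Acaa2 call was lost with DESeq2 (adjusted p = 0.11) and without EtOH replicates 1 or 3 or 4OHT replicate 2 (edgeR adjusted p up to 0.10). These genes, from Acadm on, were also named after their values were seen. The lower members were Acot1, described above, and Eci1 (1.19-fold lower, adjusted p = 0.040 in edgeR). Eci1 was not called with DESeq2 (adjusted p = 0.16), without the filter (edgeR adjusted p = 0.067), or without EtOH replicates 1 or 2 or 4OHT replicate 3 (up to 0.26).

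Markers of other cell types in which these genes are known to be high were summed per library. The 12 heart and skeletal muscle markers, a setting of high Fabp3, summed to between 17.5 and 20.3 CPM in EtOH and between 18.6 and 20.6 CPM in 4OHT, and 7 of them were under 1 CPM in both groups. Of 2 tested, Myh6 was not called and Ryr2 was higher. Ryr2 went from 7.48 ± 1.64 to 10.3 ± 1.12 CPM (edgeR adjusted p = 0.043), with groups that overlapped. The 10 adipocyte markers summed to between 33.0 and 36.8 CPM in EtOH and between 32.8 and 34.3 CPM in 4OHT, with Adipoq, Lep, Cfd and Fabp4 at 0 counts and none of 3 tested called. Trophectoderm is the outer layer of the blastocyst, which goes on to the placenta, where Pparg is known to act. Of its 12 markers 8 were tested and 7 were higher (87.5%, against 21.4% of all tested genes). The sum of the 12 moved with the treatment, from between 442 and 466 CPM in EtOH to between 991 and 1022 CPM in 4OHT. Its largest parts were the keratin genes Krt8 (219 to 489 CPM) and Krt18 (161 to 371 CPM). Also called higher were Krt7 (15.2 to 38.4 CPM), Hand1 (1.54 to 8.96), Eomes (4.97 to 13.1), Gata3 (3.48 to 7.93) and Tead4 (35.4 to 64.6). Ascl2 (8.81 to 11.3 CPM) was not called. Of 4 too low to be tested, Cdx2 went from 2.25 to 1.54 CPM and Elf5 from 0 to 0.06. Tfap2a went from 0.90 to 1.72 CPM and Plac1 from 0.51 to 1.05. The part of trophectoderm cells in the values of Fabp3 and Pparg was not tested. Primitive endoderm markers summed to between 18.0 and 27.0 CPM in EtOH and between 26.9 and 31.2 CPM in 4OHT, with none of 4 tested called. Of 6 tested neural markers 4 were lower (66.7%, against 20.6% of all tested genes). The neural sum went from between 230.4 and 245 CPM to between 137 and 146 CPM. The fibroblast sum went from between 1990 and 2059 CPM to between 2796 and 2823 CPM. Of 5 tested fibroblast markers only Fn1 was called, as higher (20%, against 21.4% of all tested genes). The part of either list in the values above was not tested.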

How the data were processed

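RNA-seq counts of 6 libraries were used, 3 of Tfe3-ERT2 mESCs with 4OHT and 3 with EtOH. The authors deposited unnormalized counts for each gene and library, beside a length of each gene. The submitters' processing notes name fastp, STAR, featureCounts and mm10, without roles or versions; annotation, strand setting and treatment of shared reads are not given in these notes or the labels.

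Genes were kept by edgeR's filterByExpr (minimum count 10, total 15), scaled with TMM factors and compared by the robust quasi-likelihood test of edgeR 4.0.16 in R 4.3.3. P-values of all 12345 tested genes were adjusted by the Benjamini-Hochberg method, and 0.05 was the threshold. An SE was derived from the fold change and its F statistic. Every pair of replicates differed by more than counting error. The steps were tested on simulated data.

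The members and lists were chosen with earlier results of these data known. Named were the members, the tested relatives of the binding proteins, up to 4 called genes per direction in each other list, all genes of counts of 5 or fewer, and the 3 nearest profiles per member; others are marked. Neighbours on the chromosome were added later. Alternatives were DESeq2 size factors, no filter, DESeq2 1.42.0, a block for the replicate number, omission of each library in turn, and levels without division by length. Words of 50 bases came from GENCODE vM21 transcripts, and promoters and positions from RefSeq on GRCm38. Protein sequences were not used here. Values of some listed genes are not reported here.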

Additional observations from a re-analysis of the deposited data

How the results depend on the processing

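Totals of 2643 higher and 2546 lower genes, and of 39 higher and 16 lower pathway genes, stayed within 1.5 times these values under DESeq2 size factors, no filter, DESeq2 (1926 and 1761; 28 and 12), the replicate block (2585 and 2497; 38 and 16) and each left-out library (2306 to 2544 and 2129 to 2407; 33 to 37 and 14 to 19). The replicate block changed no member's direction; same-numbered libraries did not deviate together (correlations −0.023, −0.016 and −0.017), and the labels give no pairing. Of 49 named pathway genes, 37 kept their side of the threshold under all 10 alternatives. Across left-out libraries the log2 fold change ran from 2.97 to 3.11 for Fabp3, from −1.14 to −0.43 for Fabp5, from 0.30 to 0.44 for Ppard and from −0.017 to 0.082 for Dbi, which was −0.002 without EtOH replicate 2 and −0.017 without 4OHT replicate 2. The ratio of Pparg in 4OHT to the EtOH floor ran from 4.44 to 8.63. Without division by length, the log2 ratio of Fabp3 to Dbi was −2.18 in EtOH and 0.84 in 4OHT (per length −1.96 and 1.06), and that of Ppard to Fabp5 was 2.74 and 3.88 (0.96 and 2.10), by construction of the scale. Some list counts moved by more than 1.5 times, and the cause was not tested. With DESeq2, higher genes went from 5 to 2 among lipases and thioesterases and from 5 to 2 among corepressors, and lower genes from 2 to 1 among corepressors, from 2 to 1 among oxidation targets, from 1 to 0 among lipid droplet targets and from 3 to 1 over both target lists. Without the filter and with the replicate block, the lower oxidation targets were also 1 in place of 2. Lower receptors were 2 in place of 1 with DESeq2 size factors and without the filter, and lower coactivators 2 in place of 1 with the replicate block. The replicate block also ended the call of Eci1 (edgeR adjusted p = 0.052). With 1 library left out, the counts that moved by more than 1.5 times reached 2 or 3 for lower receptors (all 6 fits) and 2 for higher ones, 3 for lower acyl-CoA binding genes, 3 for higher uptake genes, 3 for higher lipases, 2 for lower coactivators, 2 for higher and 1 for lower corepressors, 0 for lower lipid droplet targets, 1 for lower oxidation targets and 1 for lower genes over both target lists. Depth limits Ppara, Pparg and Rxrg, which were too low to be tested, and Fabp5, with at most 33 counts per library.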
